A study of Mus musculus with 4 samples.

Results

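The E2F and DP transcription factors, which switch the genes of S phase on and off, were followed in 4F2A fibroblasts from mouse embryos at day 2 of their reprogramming. The 10 genes E2f1 to E2f8, Tfdp1 and Tfdp2 were taken by symbol from a table of 32230 gene symbols, and each was found in it. Fibroblasts from male homozygous 4F2A embryos carry Oct4, Sox2, Klf4 and Myc, the reprogramming factors, under doxycycline control, and received doxycycline at 2 µg/mL for 48 h. The treated group had CX-5461, an inhibitor of RNA polymerase I, for 1 h on day 0, and its control group had DMSO, the vehicle, for the same 1 h. Each of the 2 groups had 2 libraries of polyadenylated RNA, numbered 2 and 3, from mixed cultures in which fewer cycling cells and less RNA per cell cannot be told apart. The labels do not say that these libraries came from separate cultures, so p-values measure the spread between libraries, which may be technical.

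E2F proteins bind a short GC-rich site, E2F1 to E2F6 as partners of a DP protein, and E2F7 and E2F8 without one. E2F1, E2F2 and E2F3 are counted as activators, held inactive by the retinoblastoma protein until cyclin-dependent kinases phosphorylate it. E2F4 and E2F5 act mostly as repressors that need a pocket protein (RB1, RBL1 or RBL2), E2F6 represses as part of the Polycomb complex PRC1.6, and the atypical E2F7 and E2F8 repress without pocket proteins. Several E2F genes are themselves E2F targets, so their transcripts are known to climb when cells enter S phase. In fibroblasts, loss of all activators together stops division.

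The values are TPM, transcript numbers corrected for gene length and set to a sum of 1000000 per library, so levels can be compared between genes. Recovered read numbers, in units of 1000000, came to 35.6 and 35.3 in the CX-5461 libraries and to 35.5 and 37.6 in the DMSO libraries. Mitochondrially encoded genes held 9.20% and 9.24% of TPM in the CX-5461 libraries, and 9.96% and 15.3% in the DMSO libraries, with DMSO replicate 3 the high one. Fibroblast markers summed to 11247 and 10951 TPM with CX-5461 and to 13997 and 11815 TPM with DMSO, and of 10 tested 4 fell (Lum, Thy1, Dcn and Col3a1) and 1 rose (Fn1). The muscle regulators Myod1 and Myog were listed at 0 throughout, but Des, the muscle marker tested, rose (33.4 and 33.2 TPM with CX-5461, 24.1 and 20.2 TPM with DMSO). Pluripotency markers summed to at most 0.93 TPM in any library. Macrophage markers summed to 857 and 956 TPM with CX-5461 and 595 and 588 TPM with DMSO, mostly from Lyz2, and of 6 tested 2 rose (Lyz2 and Adgre1) and 0 fell (0 also unadjusted and by voom). Keratinocyte markers summed to 25.9 and 37.1 TPM with CX-5461 and 32.0 and 36.8 TPM with DMSO, and 0 of 4 tested passed (2 higher and 1 lower unadjusted, and 1 of each by voom). Of the endothelial markers tested, Kdr rose (23.8 and 24.1 TPM with CX-5461, 6.16 and 6.42 TPM with DMSO) and Tek fell (33.9 and 32.6 TPM with CX-5461, 44.3 and 43.7 TPM with DMSO), while Pecam1 stayed under 0.1 TPM. Among the marker calls, those of Lum and Kdr held whichever library was left out. Each of the others ended when either CX-5461 library was left out, and that of Tek ended whichever library was left out. Of all genes tested, 8.21% were lower and 11.6% higher with CX-5461. The part of these markers in the E2F values was not tested.

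The start-site windows of 5 of the genes are shown because they set the 3 members that fell most (E2f8, E2f2 and E2f7) beside E2f3, which did not pass, and Tfdp1, the main partner gene. Windows run from 250 bases before to 50 bases after the start, come from RefSeq (GRCm38.p6) and are written 5′ to 3′. Capitals mark E2F words (TTTCGCGC, TTTCGCGG, TTTGGCGC, TTTGGCGG or TTTCCCGC), the cell cycle homology region of late cell cycle promoters (TTTGAA or TTCGAA) and the CCAAT box (CCAAT), each searched on both strands.
E2f8 (chr7:48881547-48881846, minus strand): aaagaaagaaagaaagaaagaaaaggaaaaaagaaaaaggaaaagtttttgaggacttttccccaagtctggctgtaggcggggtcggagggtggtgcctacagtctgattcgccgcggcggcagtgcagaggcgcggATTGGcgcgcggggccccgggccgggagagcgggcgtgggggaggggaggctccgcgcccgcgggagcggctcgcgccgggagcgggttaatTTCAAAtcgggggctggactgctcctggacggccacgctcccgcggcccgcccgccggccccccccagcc
E2f2 (chr4:136172024-136172323, plus strand): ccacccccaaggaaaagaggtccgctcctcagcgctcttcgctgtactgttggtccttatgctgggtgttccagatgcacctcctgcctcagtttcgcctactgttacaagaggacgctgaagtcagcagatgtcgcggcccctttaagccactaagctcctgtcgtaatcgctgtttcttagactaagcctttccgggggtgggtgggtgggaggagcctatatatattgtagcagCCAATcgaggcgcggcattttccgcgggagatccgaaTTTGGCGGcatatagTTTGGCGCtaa
E2f7 (chr10:110745189-110745488, plus strand): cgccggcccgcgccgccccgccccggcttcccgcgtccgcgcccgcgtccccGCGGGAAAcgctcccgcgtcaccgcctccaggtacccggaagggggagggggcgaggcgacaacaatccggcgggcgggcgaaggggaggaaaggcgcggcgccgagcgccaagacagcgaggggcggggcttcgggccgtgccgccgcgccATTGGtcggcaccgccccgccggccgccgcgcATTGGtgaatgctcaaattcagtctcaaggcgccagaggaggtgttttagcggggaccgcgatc
E2f3 (chr13:29986014-29986313, minus strand): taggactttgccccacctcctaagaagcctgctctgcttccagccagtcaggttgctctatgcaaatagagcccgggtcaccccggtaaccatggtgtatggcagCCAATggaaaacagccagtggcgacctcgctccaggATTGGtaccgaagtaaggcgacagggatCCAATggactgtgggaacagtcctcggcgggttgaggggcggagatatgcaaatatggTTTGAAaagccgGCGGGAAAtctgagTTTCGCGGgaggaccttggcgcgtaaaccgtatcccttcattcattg
Tfdp1 (chr8:13338501-13338800, plus strand): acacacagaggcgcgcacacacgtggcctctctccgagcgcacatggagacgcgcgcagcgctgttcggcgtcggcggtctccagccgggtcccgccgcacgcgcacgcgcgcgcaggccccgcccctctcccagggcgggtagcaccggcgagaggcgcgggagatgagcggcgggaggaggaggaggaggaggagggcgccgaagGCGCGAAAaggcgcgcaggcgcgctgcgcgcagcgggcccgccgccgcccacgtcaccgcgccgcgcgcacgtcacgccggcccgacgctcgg

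E2F words stood in 4 of these 5 windows. E2f2 and E2f3 each have a second window, not shown, that held no E2F word. In the windows shown, E2f2 had 2, at 24 to 31 and 39 to 46 bases after its start (counted as 0), and E2f3 had 2, at -11 to -4 and 3 to 10. That RefSeq start of E2f2 lies 120 bases upstream of its GENCODE gene, so both words lie upstream of the GENCODE gene too. E2f7 had 1 far upstream, at -198 to -191, and Tfdp1 had 1 at -43 to -36, which also fell in its overlapping second window. E2f8 held none of these letters, but had a homology region word at -20 to -15 and a CCAAT box at -112 to -108. Neither was particular to E2f8, as E2f3 had a homology region word at -23 to -18. The windows shown of E2f2, E2f3 and E2f7 held CCAAT boxes too. No 2 of these words overlapped. Over all 32851 windows of the annotation, 2.61% held an E2F word, 19.2% a homology region word and 37.4% a CCAAT box. Of the 12 windows found for 8 members, 5 held an E2F word, 3 a homology region word and 5 a CCAAT box. Both Tfdp1 windows count among them with the same E2F word. The words were chosen after the windows of the members had been read, so these counts cannot be weighed against the shares over all windows. The E2f1 window starts from a RefSeq site 466 bases inside the GENCODE gene and held no word, which says nothing about the sequence further upstream. The E2f6 window and both Tfdp2 windows held none either, but those of Tfdp2 start 62430 and 62973 bases inside its GENCODE gene, and E2f4 and E2f5 had no window. A match is only a run of letters, and binding was not measured.

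Of the 10 genes 5 were lower with CX-5461, on both sides of the line between activators and repressors. The activator E2f2 and the atypical repressors E2f7 and E2f8 fell most, by 5.69-fold to 12.7-fold in mean TPM, E2f1 and Tfdp1 fell by 1.58-fold and 1.27-fold, and E2f3, E2f4, E2f5, E2f6 and Tfdp2 did not pass the test. Each difference is log2(TPM + 1) with CX-5461 less that with DMSO, so that changes of low genes are understated, and a gene passed at a Benjamini-Hochberg adjusted p under 0.05 in a limma fit of 14621 genes. Of those genes, 8.21% were lower and 11.6% higher with CX-5461 (19.8% in either direction), 26.3% had both CX-5461 libraries below both DMSO libraries and 38.2% had them above. Among the members 5 were lower, 0 were higher (0 also at an unadjusted p under 0.05 and by limma's voom), and 9 had both CX-5461 libraries below both DMSO libraries, with E2f5 the exception. The median difference was -0.36 over the 10 members and 0.07 over all genes tested. All 10 passed the filter of a mean of 1 TPM, E2f2 and E2f8 through their DMSO libraries. Without DMSO replicate 3 the count of lower members was 3, and by voom on recovered reads it was 8.

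**Figure D1:**
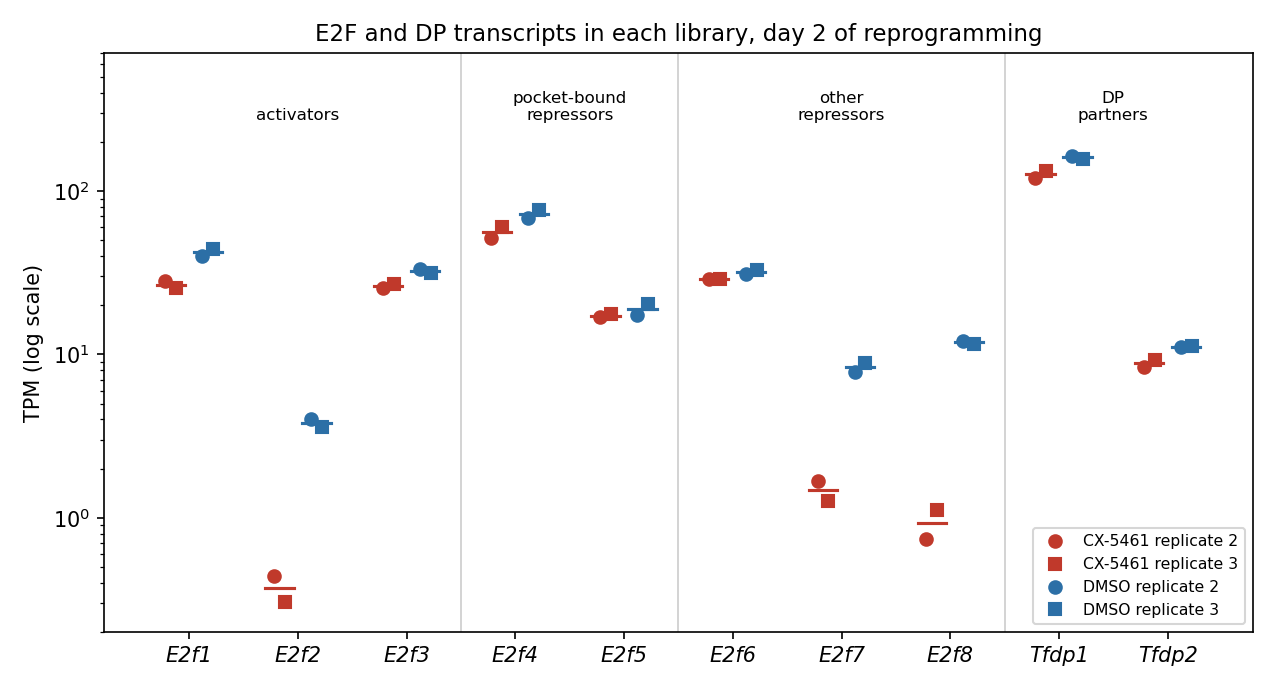
TPM (log axis) of each of the 10 E2F and DP genes in the CX-5461 libraries (red) and the DMSO libraries (blue), with circles for replicate 2, squares for replicate 3 and a bar at the mean. The groups lie far apart for E2f2, E2f7 and E2f8, with CX-5461 values of at most 1.67 TPM, and the libraries overlap for E2f5.

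Among the activators, E2f2 (chromosome 4, 136172394 to 136196057, mm10) had 0.439 and 0.305 TPM in the CX-5461 libraries, against 4.03 and 3.58 TPM in the DMSO libraries. It was the least abundant member in both groups, and the CX-5461 values rest on only 22 and 15 recovered reads, against 202.5 and 202 with DMSO. The mean was 10.2-fold lower with CX-5461 (log2 difference -1.81 ± 0.23 SE, limma adjusted p = 0.00540), and the gene passed whichever library was left out.

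E2f1 (chromosome 2, 154559407 to 154569892), the activator most closely tied to both S phase entry and apoptosis, had 28.0 and 25.5 TPM with CX-5461 and 40.1 and 44.2 TPM with DMSO. All values with CX-5461 lay below those with DMSO, but the fall was only 1.58-fold (-0.64 ± 0.10, limma adjusted p = 0.0122). It did not pass without CX-5461 replicate 2 (adjusted p = 0.0764), CX-5461 replicate 3 (0.125) or DMSO replicate 3 (0.0529).

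E2f3 (chromosome 13, 29906575 to 29986063), whose alternative starts encode the forms E2F3a and E2F3b that a gene total cannot separate, had 25.5 and 27.1 TPM with CX-5461 and 33.2 and 31.6 TPM with DMSO. The groups did not overlap, yet the difference of -0.29 ± 0.09 did not pass (limma adjusted p = 0.0823). It passed under median-of-ratios scaling (-0.36, adjusted p = 0.0325), quantile normalization (-0.35, 0.0349) and rescaling that left out mitochondrial and top genes (-0.36, 0.0345). By voom E2f3 passed as well (-0.37, adjusted p = 0.0104). With CX-5461 the levels of E2f1 and E2f3 overlapped, whereas with DMSO those of E2f1 lay above those of E2f3.

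Among the repressors that work through pocket proteins, E2f4 (chromosome 8, 105297663 to 105305370), the main E2F of resting cells, had 51.6 and 60.6 TPM with CX-5461 and 68.1 and 76.6 TPM with DMSO. It was the most abundant E2F in every library. The groups did not overlap, and the difference of -0.36 ± 0.12 did not pass (limma adjusted p = 0.0811). It passed under quantile normalization (-0.45, adjusted p = 0.0481) and by voom (-0.44, 0.00850). E2f5 (chromosome 3, 14578641 to 14606309), a close relative of E2f4, had 16.8 and 17.7 TPM with CX-5461 and 17.5 and 20.3 TPM with DMSO. Its groups overlapped (-0.12 ± 0.12, adjusted p = 0.513), and a fall or a rise of this size cannot be told from the spread between libraries.

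Among the repressors outside pocket protein control, E2f8 (chromosome 7, 48866429 to 48881596) had 0.743 and 1.12 TPM with CX-5461, against 12.1 and 11.6 TPM with DMSO. This was the largest fall of the family, 12.7-fold in mean TPM (-2.74 ± 0.18, limma adjusted p = 0.000849), which ranked it 84 of the 14621 genes from the lowest difference. E2f7 (chromosome 10, 110745439 to 110787384), its partner in dimers and, in human cells, a described p53 target, had 1.67 and 1.27 TPM with CX-5461 and 7.81 and 8.89 TPM with DMSO. The fall was 5.69-fold (-1.92 ± 0.18, adjusted p = 0.00242), and both atypical genes passed whichever library was left out. An annotated antisense gene shares 610 exon bases with E2f8 and another shares 86 with E2f7. Each lies at or below 1.55 TPM in every library, and reads of the 2 strands could not be separated if counting ignored strand.

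E2f6 (chromosome 12, 16810963 to 16839742), the Polycomb-linked repressor, had 28.9 and 29.0 TPM with CX-5461 and 31.3 and 32.8 TPM with DMSO. The groups did not overlap, but the difference of -0.14 ± 0.09 did not pass (limma adjusted p = 0.310). E2f6 and E2f3 overlapped in level with DMSO, and with CX-5461 E2f6 stood above both E2f1 and E2f3.

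Of the DP partners, Tfdp1 (chromosome 8, 13338751 to 13378448), which encodes DP1, had 121 and 132 TPM with CX-5461 and 164 and 158 TPM with DMSO. It was the most abundant member and fell 1.27-fold (-0.35 ± 0.09, limma adjusted p = 0.0427), a call that ended whichever library was left out (adjusted p = 0.0682 to 0.286), without the filter on low values (0.0765) and without limma's trend and robust options (0.100). Tfdp2 (chromosome 9, 96196275 to 96323646), which encodes DP2, had 8.42 and 9.29 TPM with CX-5461 and 11.1 and 11.2 TPM with DMSO. Its groups did not overlap, and the difference of -0.30 ± 0.13 did not pass (adjusted p = 0.145), though it did by voom (-0.41, 0.00910). Tfdp1 made up 93.4% to 93.7% of DP transcripts in all 4 libraries.

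**Figure D2:**
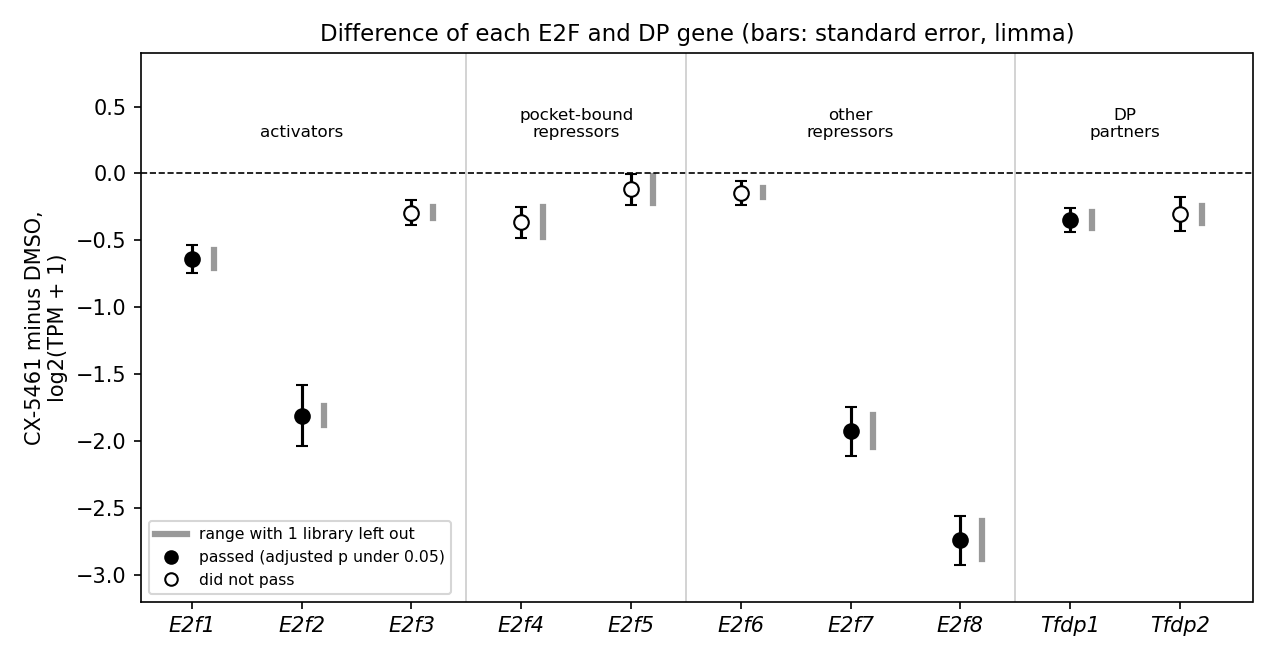
Difference of each member, CX-5461 minus DMSO, in log2(TPM + 1) units, with its standard error from limma (whiskers) and the range with each library left out (grey bars); filled points passed at an adjusted p under 0.05. E2f2, E2f7 and E2f8 lie between -2.74 and -1.81, and the other 7 members between -0.64 and -0.12.

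Taken by role, the sums of both sides were lower with CX-5461. The activators E2f1 to E2f3 summed to 54.0 and 52.8 TPM with CX-5461 and 77.4 and 79.4 TPM with DMSO. The repressors E2f4 to E2f8 summed to 99.8 and 109.6 TPM with CX-5461 and 137 and 150.2 TPM with DMSO. The ratio of activator to repressor TPM was 0.542 and 0.482 with CX-5461 and 0.566 and 0.529 with DMSO, so the groups overlapped, and no p is given because the exact permutation test of a single value cannot go below 0.333 with 2 against 2 libraries. Its log2 difference of -0.10 was about as large as the spread between replicates (SD 0.0971), and it was 0.00386 with E2f6 left out of the repressors, so neither gives a direction. With E2f4 and E2f5 left out the ratio was 1.73 and 1.69 with CX-5461 and 1.51 and 1.49 with DMSO, a log2 difference of 0.18, and the groups did not overlap.

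The make-up of the pool was described as well, without a test. E2f2, E2f7 and E2f8 together held 1.86% and 1.66% of E2F transcripts with CX-5461 and 11.2% and 10.5% with DMSO. E2f3 to E2f6 held 79.9% and 82.7% with CX-5461 and 70.1% and 70.3% with DMSO. E2f4 by itself held 33.6% and 37.3% with CX-5461 and 31.8% and 33.4% with DMSO. Summed DP transcripts came to 0.842 and 0.870 times the summed E2F transcripts with CX-5461 and to 0.820 and 0.737 times with DMSO. E2f2, E2f7 and E2f8 were grouped because they fell most, so their share and that of E2f3 to E2f6 lie apart by that choice. The E2f4 shares were apart only narrowly (33.56% in CX-5461 replicate 2, 33.35% in DMSO replicate 3), and the DP ratios did not overlap. Among all genes tested, 26.3% had both CX-5461 libraries below both DMSO libraries and 38.2% had them above. These measures describe RNA, and protein was not measured.

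**Figure D3:**
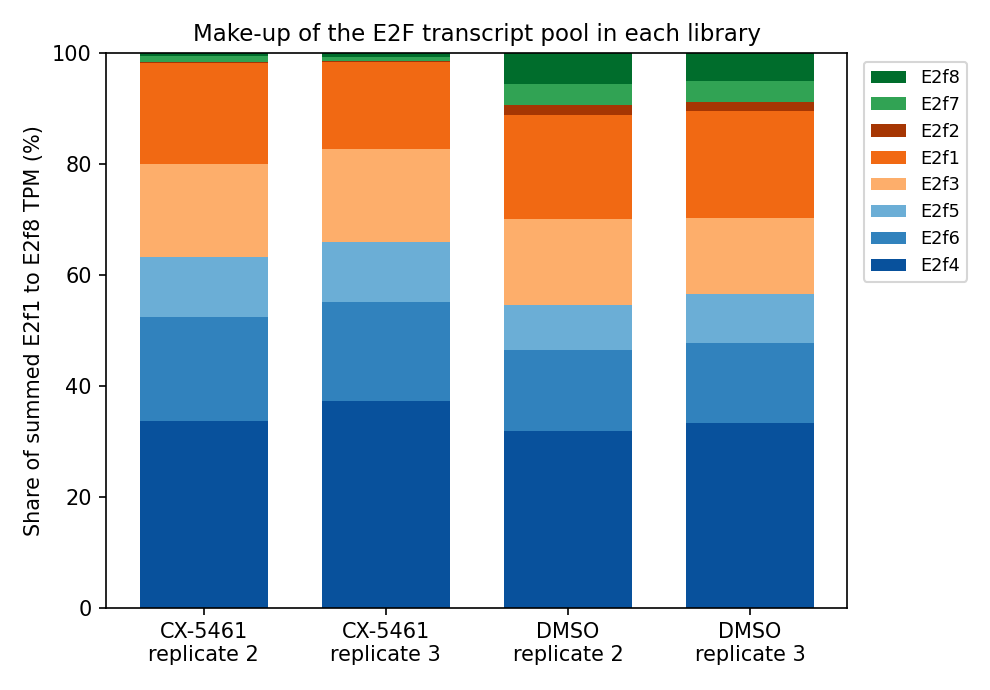
Share of the summed TPM of E2f1 to E2f8 held by each gene, in percent, for the CX-5461 libraries (left) and the DMSO libraries (right). The top segments, E2f8, E2f7 and E2f2, shrink to 1.66% to 1.86% with CX-5461, against 10.5% to 11.2% with DMSO.

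The regulators that set E2F activity moved in both directions. Of the pocket proteins, Rb1 had 46.6 and 56.7 TPM with CX-5461 and 24.9 and 21.8 TPM with DMSO, and rose (1.11 ± 0.13, limma adjusted p = 0.00464). Rbl2 (p130), the partner of E2F4 in resting cells, had 22.5 and 25.8 TPM with CX-5461 and 16.1 and 17.2 TPM with DMSO, and rose as well (0.51, adjusted p = 0.0319). Rbl1 (p107), itself an E2F target, had 7.15 and 7.88 TPM with CX-5461 and 13.5 and 13.7 TPM with DMSO, and fell (-0.78, adjusted p = 0.0116). Leaving out CX-5461 replicate 3 ended the calls of all 3 (adjusted p = 0.0519, 0.224 and 0.0782 for Rb1, Rbl2 and Rbl1), and the call of Rbl2 ended without any 1 of the libraries. Without CX-5461 replicate 2 or DMSO replicate 3, Rbl1 was lost too.

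Of the G1 cyclins and kinases, which phosphorylate pocket proteins, 4 of 8 fell and 0 rose (0 also unadjusted and by voom). Of all genes tested, 8.21% were lower and 11.6% higher. Ccne1 and Ccne2 are E2F targets too, and are counted again among the targets of cycle control below. Ccne2 had 4.47 and 3.55 TPM with CX-5461 and 17.2 and 20.97 TPM with DMSO (-2.00, limma adjusted p = 0.00173), and Ccne1 had 23.9 and 21.4 TPM with CX-5461 and 78.8 and 66.3 TPM with DMSO (-1.63, adjusted p = 0.00118). Both cyclin E genes passed whichever library was left out. Cdk2, their kinase (-0.92, adjusted p = 0.00487), and Ccnd3 (-0.42, 0.0260) fell too, though neither passed with 1 or the other CX-5461 library left out. The cyclin D genes of highest level gave no call, Ccnd1 at -0.08 (adjusted p = 0.580) and Ccnd2 at 0.04 (0.761, and -0.04 to -0.03 under the other scalings and voom), nor did their kinases Cdk4 (-0.27, 0.0700) and Cdk6 (-0.24, 0.129). Cdk4 was lower, however, under each of the 3 other scalings (adjusted p = 0.0323 to 0.0435), without DMSO replicate 2 (0.0395) and by voom (0.00337), and Cdk6 by voom (0.00929).

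Inhibitors of these kinases split, with 3 higher and 4 lower of 7, against 11.6% higher and 8.21% lower of all genes tested. The rises were those of Cdkn1a (1.28), Cdkn2a (0.77) and Cdkn2b (0.70), and the falls those of Cdkn2c (-1.70), Cdkn2d (-1.02), Cdkn1c (-0.74) and Cdkn1b (-0.67), with limma adjusted p from 0.000959 to 0.0483. Leaving out any library kept Cdkn1a and Cdkn2c past the threshold, and the other 5 did not pass without CX-5461 replicate 2 or without replicate 3. Cdkn1b and Cdkn2d were also lost without DMSO replicate 2. Without the filter on low values, and without limma's trend and robust options, Cdkn1b, Cdkn2a and Cdkn2d did not pass (limma adjusted p = 0.0586 to 0.0907). Cdkn2d was lost with a pseudocount of 5 as well (0.0509). Cdkn2a also encodes ARF, and the gene total does not separate it from p16.

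Of the ligase parts that mark E2F proteins for degradation, the F-box genes Skp2 (4.28 and 4.52 TPM with CX-5461, 14.6 and 12.3 TPM with DMSO) and Ccnf (3.52 and 4.81 TPM with CX-5461, 18.1 and 14.6 TPM with DMSO) fell. Their differences were -1.41 and -1.75 (limma adjusted p = 0.00322 and 0.00341), and both passed whichever library was left out. Fzr1, an activator of the anaphase-promoting complex, gave -0.24 (adjusted p = 0.124), and was lower under the 3 other scalings (0.0417 to 0.0484) and by voom (0.0212). Of the MuvB core that joins E2F4 and pocket proteins in the DREAM complex, Lin9 fell (-0.95, adjusted p = 0.0180, and 0.0856 to 0.109 without CX-5461 replicate 2, CX-5461 replicate 3 or DMSO replicate 3). Lin37 (-0.47, 0.0836), Rbbp4 (-0.09, 0.626) and Lin52 (0.08, 0.732) did not pass, though Lin37 did by voom (0.0304), and Lin54 is not analysed here.

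Classical E2F targets of proliferation fell nearly throughout. Of 73 such genes in 3 lists, all tested, 67 fell and 1 rose, with a median log2 difference of -1.72 against 0.07 over all genes. Of all genes tested, 8.21% were lower and 11.6% higher. The lists were chosen with earlier results of these data known, so these counts are not an independent test. Of 37 targets of replication and nucleotide supply, 35 fell and 0 rose, among them Mcm5 (-3.72), Clspn (-3.45), Mcm3 (-3.0) and Lig1 (-2.22). Rfc4 (-0.54, limma adjusted p = 0.0865) and Gins2 (-0.33, 0.141) did not pass, and none of the 37 had a positive difference. Rfc4 was lower under median-of-ratios scaling (adjusted p = 0.0423), rescaling (0.0358) and voom (0.0429), and Gins2 by voom (0.0242). Of 15 targets of cycle control, 14 fell and none had a positive difference, with Ccna2, the cyclin of S phase, at 6.48 and 6.28 TPM with CX-5461 and 67.9 and 74.4 TPM with DMSO (-3.29, adjusted p = 0.000177). Cdk1 (-2.87), Mybl2 (-2.78) and the spindle checkpoint gene Mad2l1 (-1.95) were also among them, while Cdc25a (-0.25, adjusted p = 0.230) passed only by voom (0.0345). Ccne1, Ccne2, Cdkn2c, Skp2 and Rbl1 belong to this list too, so their falls given above are counted again.

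Of 21 targets of chromatin and repair, 18 fell and 1 rose. Among the falls were Uhrf1 (-3.70), the histone chaperone gene Asf1b (-2.75), Usp1 (-1.72) and the DNA methyltransferase gene Dnmt1 (-1.37). The rise was that of Eed, a Polycomb subunit gene, with 51.8 and 54.6 TPM with CX-5461 and 39.9 and 34.2 TPM with DMSO (0.51, limma adjusted p = 0.0260, and 0.0641 to 0.196 without CX-5461 replicate 2, CX-5461 replicate 3 or DMSO replicate 3). Suz12 (-0.48, adjusted p = 0.0549) and Rad54l (-0.27, 0.151) gave no call, though Suz12 was lower under each of the 3 other scalings (adjusted p = 0.0178 to 0.0187), with a filter of 5 TPM (0.0418) or of 20 recovered reads (0.0361) and by voom (0.000628), and Rad54l by voom (0.0323). The falls named in the 3 lists had the smallest adjusted p, so they do not stand for weaker called falls such as Gins3 (-0.71) and Prim2 (-0.72). Of the 73 targets, 67 had a more negative difference than E2f1. By contrast 33 lay below E2f7 and 11 below E2f8.

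Targets that E2F1 is known to induce in apoptosis went the other way. Of 10 tested, 6 rose and 0 fell (0 also unadjusted and by voom), with a median of 0.65. Of all genes tested, 11.6% were higher and 8.21% lower. This list, too, was chosen with earlier results of these data known, and its Cdkn2a was also counted among the kinase inhibitors. Trp53inp1 had 203 and 237 TPM with CX-5461 and 84.7 and 74.8 TPM with DMSO (1.45, limma adjusted p = 0.00146), and Pmaip1 (1.39), Bbc3 (0.75), Apaf1 (0.72), Cdkn2a (0.77) and Bcl2l11 (0.58) were the others. Several of these are p53 targets as well, so the list does not stand for E2F1 by itself. Leaving out 1 or the other CX-5461 library ended the calls of Bbc3, Apaf1 and Cdkn2a, and leaving out any library ended that of Bcl2l11. The call of Bcl2l11 also ended without the filter on low values (limma adjusted p = 0.0551). Trp73, the textbook direct target of E2F1 in apoptosis, had 0.229 and 0.197 TPM with CX-5461 and 0.105 and 0 TPM with DMSO, below the filter.

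**Figure D4:**
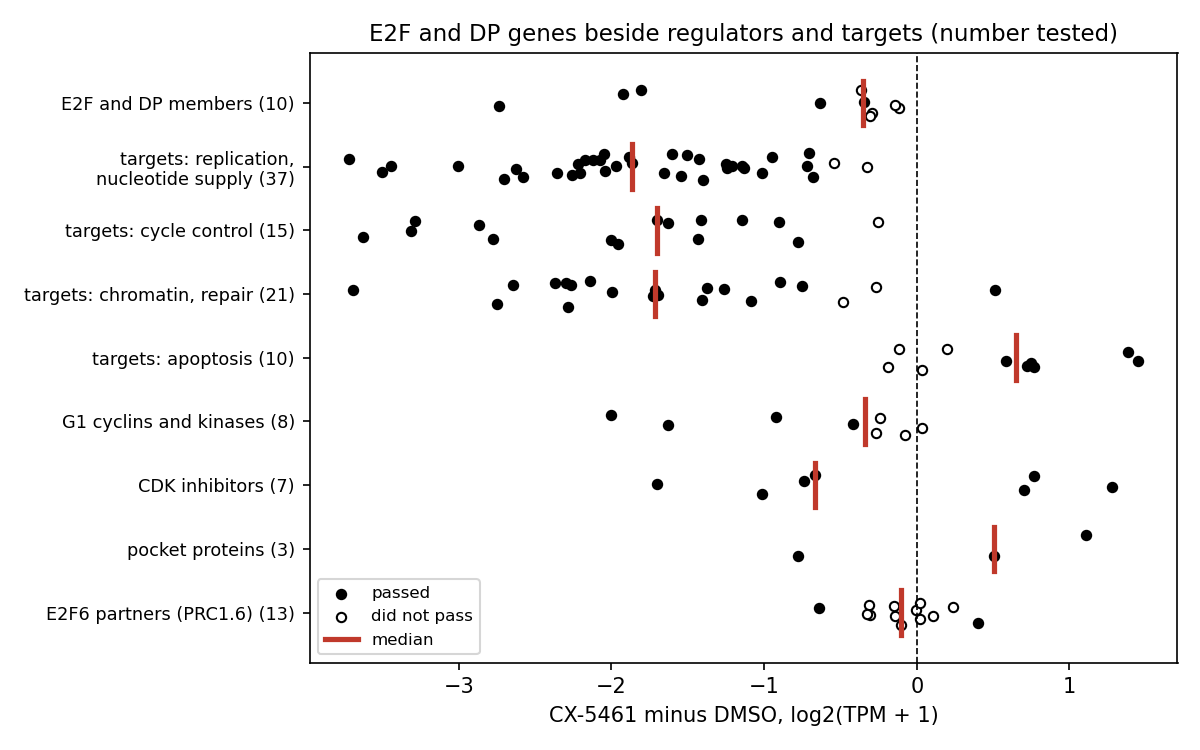
Difference of each tested gene, CX-5461 minus DMSO, in log2(TPM + 1) units, for the 10 members and 8 lists of regulators and targets; filled points passed, red bars are medians, and vertical scatter within a row has no meaning. The 3 proliferative target lists have medians of -1.87, -1.70 and -1.72, against -0.36 for the members and 0.65 for the apoptosis targets.

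Among 13 partners of E2F6 in PRC1.6, Rnf2 rose (0.40, limma adjusted p = 0.0299), Cbx3 fell (-0.64, 0.0209) and 11 did not pass, among them Wdr5 (-0.33, 0.146) and Cbx1 (-0.31, 0.190). With 11.6% of all genes higher and 8.21% lower, 1 of 13 in each direction is near the background, the median was -0.11, and voom called 4 of the 13 lower and 1 higher. The call of Rnf2 ended in all 3 other scalings and without DMSO replicate 2 (adjusted p = 0.0517), and both calls ended without 1 or the other CX-5461 library. Of 16 germline genes silenced in mouse somatic cells by this complex, 15 lay below the filter and were not tested, 4 were listed at 0 in every library, and the highest value of any was 1.88 TPM. Summed, they came to 2.55 and 5.32 TPM with CX-5461 and 4.39 and 3.62 TPM with DMSO, so the groups overlapped. Sycp3, the tested one, gave 0.16 (adjusted p = 0.789).

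The E2F words searched in the members were also counted across the table. Of 10693 tested genes with a start-site window, 591 (5.53%) held an E2F word, and of those 17.1% were lower and 8.97% higher with CX-5461, against 8.20% and 12.2% of all genes with a window. Genes with a homology region word were lower in 12.7% of 1769 cases, and genes with a CCAAT box in 9.87% of 4608. Of the 57 proliferative targets with a window, 30 held an E2F word, and of 6 apoptosis targets 1 did. The 591 genes include these targets and members such as E2f2 and E2f7, so falls given above are counted again here. These shares are descriptions without a test, and most genes with an E2F word gave no call.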

How the data were processed

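Polyadenylated RNA of 4F2A fibroblasts was sequenced, per the labels' protocols, as paired-end reads, and the authors deposited TPM values, 1 column per library, each summing to 1000000. The build is mm10, per the submitters' processing notes; which aligner, counter and annotation were used is not given in the sources used here. Columns were matched to samples by treatment and replicate number, and 0 were left unused.

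TPM times the GENCODE M21 exon length (30067 symbols matched) fell on a grid, from which read numbers were recovered per library. Of 71290 values above 0, 69.5% lay within 0.01 of a whole read and 87.5% of a multiple of 0.5 reads; whether a read is a mate or a pair is not given, so no counting intervals are printed. Chromosomes and positions are those of GENCODE M21.

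The test was limma 3.58.1 (R 4.3.3) on log2(TPM + 1), over genes averaging 1 TPM or more (eBayes with trend and robust, 2 residual and 3.75 prior degrees of freedom), with Benjamini-Hochberg adjustment over all genes. Other settings were pseudocounts of 0.1 and 5, other filters, 3 other scalings, plain limma, a replicate block, each library left out, and voom on recovered reads. On simulated data with known changes the fit made more false calls than its threshold allows, mostly at genes of few reads; of 2895 genes called here, 89 average under 20 recovered reads and 43 have no read number. A filter of 20 recovered reads was therefore added after seeing the data. Tables used Python 3.11.15 with pandas 2.3.3 and numpy 2.4.6, and figures matplotlib 3.10.9.

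The members and gene lists were chosen with earlier results of these data known, and the sequence words after the windows had been read. All members are named; of each list of regulators and targets, every gene where it holds 8 or fewer, otherwise the 4 tested genes whose adjusted p was smallest, or 2 if there was no call. Genes named because a count was 5 or fewer, for their role (Trp73, Bcl2l11) or as cell type markers, were chosen after their values were seen.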

Additional observations from a re-analysis of the deposited data

How the results depend on the processing

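No member changed direction under any of these settings, and E2f2, E2f7 and E2f8 passed in every setting that tested them. Of 148 values of members under other settings, 10 lost the call, all of E2f1 or Tfdp1, and 7 gained one, of E2f3, E2f4 or Tfdp2. The count of lower members was 3 with a filter of 5 TPM, where E2f2 and E2f7 were not tested, 8 by voom, and 3 to 4 with 1 library left out. Libraries with the same replicate number did not deviate together (correlation 0.03), so the replicate block is given only here. It left 4 members lower, 1589 genes higher and 1100 lower. With the block Rfc4 was lower (limma adjusted p = 0.0479), and the calls of Tfdp1 (0.0714), Cdkn2d (0.0722) and Bcl2l11 (0.0548) ended. Over all genes, 1694 were higher and 1201 lower, but 1051 were higher without the filter, 1128 higher in plain limma and 2313 lower by voom. With 1 library left out, 237 to 2047 were higher and 364 to 891 lower; the cause was not tested. The log2 activator to repressor ratio (-0.10) was 0.18 without E2f4 and E2f5 and 0.00386 without E2f6, by construction, and -0.18 to -0.01 with 1 library left out. Signs turned for genes without a call: Ccnd2 (-0.0321 under median-of-ratios scaling, -0.0318 under quantile normalization, -0.0351 on rescaling, -0.0324 by voom) and, with 1 library left out, Lin52 (-0.00168 to 0.164), Sycp3 (-0.220 to 0.547) and Rbbp4 (-0.246 to 0.0621). Other scalings moved the median of all genes by -0.07 to -0.05. With a filter of 20 recovered reads, chosen after seeing the data, 5 members were lower, 1972 genes higher and 1364 lower. Without the filter on low values, and in plain limma, the calls of Rbl2, Ccnd3, Eed, Rnf2 and Cbx3 ended (limma adjusted p = 0.0524 to 0.0707). Low read numbers limit E2f2 and E2f8 with CX-5461.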
